A study of Mus musculus with 14 samples.

Results

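The genes described here bring fatty acids into muscle and oxidise them in mitochondria, together with a few that set the choice between fat and glucose as fuel. The set listed 33 gene symbols, and a gene was taken up where the array annotation gave at least 1 probe set its symbol alone, with the brightest such probe set standing for the gene. This held for 31 of the 33 genes, out of 19938 genes read in that way on the arrays. The annotation used here ties no probe set to Acsl1 alone, and the probe set of Cpt1b is shared with Gm44502, so neither gene was analysed here.

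The samples came from plantaris, a small calf muscle, which was overloaded by removing the muscles that share its work (synergist ablation), an operation after which it enlarges. All animals were male C57BL/6J mice of 5 months, and muscles were taken at days 0, 1, 3, 5, 7, 10 and 14. Each day had 2 Affymetrix Mouse Gene 1.0 ST arrays, 1 for pooled right muscles and 1 for pooled left muscles, with 6 animals to a pool. The samples include no sham-operated mice, so overload, surgery and elapsed time cannot be told apart, and whether the 2 pools of a day shared animals is not given. P-values therefore rest on differences between pools, some of which may be technical. Values are log2 of the deposited intensity, a scale on which a difference of 1 is a 2-fold change. Where 2 levels are given for a day they are those of the right and the left pool. A level belongs to its own probe set and was not compared between genes. Changes are day means minus the day 0 mean ± SE from a limma fit (n = 2 pools a day), and "rose" or "fell" stands for an adjusted p under 0.05 over all 19938 genes. The median SE of a difference was 0.0988, and no gene's level passed 14.61.

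Long-chain fatty acids reach a muscle fibre after lipoprotein lipase frees them from circulating triglyceride, cross the membrane with the help of CD36 and transport proteins, and travel bound to a small carrier protein. They are then joined to coenzyme A, handed through the mitochondrial membranes as carnitine esters, and shortened by repeated rounds of beta-oxidation that pass electrons to the respiratory chain. Resting and endurance-trained muscle relies heavily on this route, and malonyl-CoA, the product of acetyl-CoA carboxylase, restrains it at the carnitine step.

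Most of the set fell within a day of overload and stayed below day 0 to the end. Of the 31 genes, 29 fell and 2 rose on day 1, where 34.7% of all genes fell and 20.3% rose. On day 3, 29 fell and 1 rose, against 23.4% and 24.2% of all genes. The count was 30 down and 1 up on day 5, with 38.1% and 27.0% of all genes. On each of these days the falling share of the set stood well above that of all genes. It was again 30 and 1 on day 7 (37.8% and 28.5% of all genes) and on day 10 (27.5% and 23.6%). On day 14, 28 fell and 1 rose, with 20.7% of all genes falling and 21.4% rising. The median change over the set was -0.91 on day 1, -1.25 on day 3, -1.22 on day 5, -1.34 on day 7, -1.10 on day 10 and -0.76 on day 14. Over all genes the corresponding medians ran from -0.16 to -0.07. Over the whole course the moderated F test called 31 of 31 genes, and it called 71.3% of all genes.

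The fall was deep in the middle of the course and shallower at its end. On day 7, 25 of the 31 genes had fallen by more than 2-fold, a change made by 5.58% of all genes. On day 14 Lpl and Slc27a1 were the 2 that still lay more than 2-fold down, against 1.29% of all genes. Even so, both pools of day 14 lay below both pools of day 0 for 30 of the 31, as they did for 42.0% of all genes. The gene that rose at each of the 6 days was Cpt1a, and the other riser on day 1 was Pdk4.

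**Figure D1:**
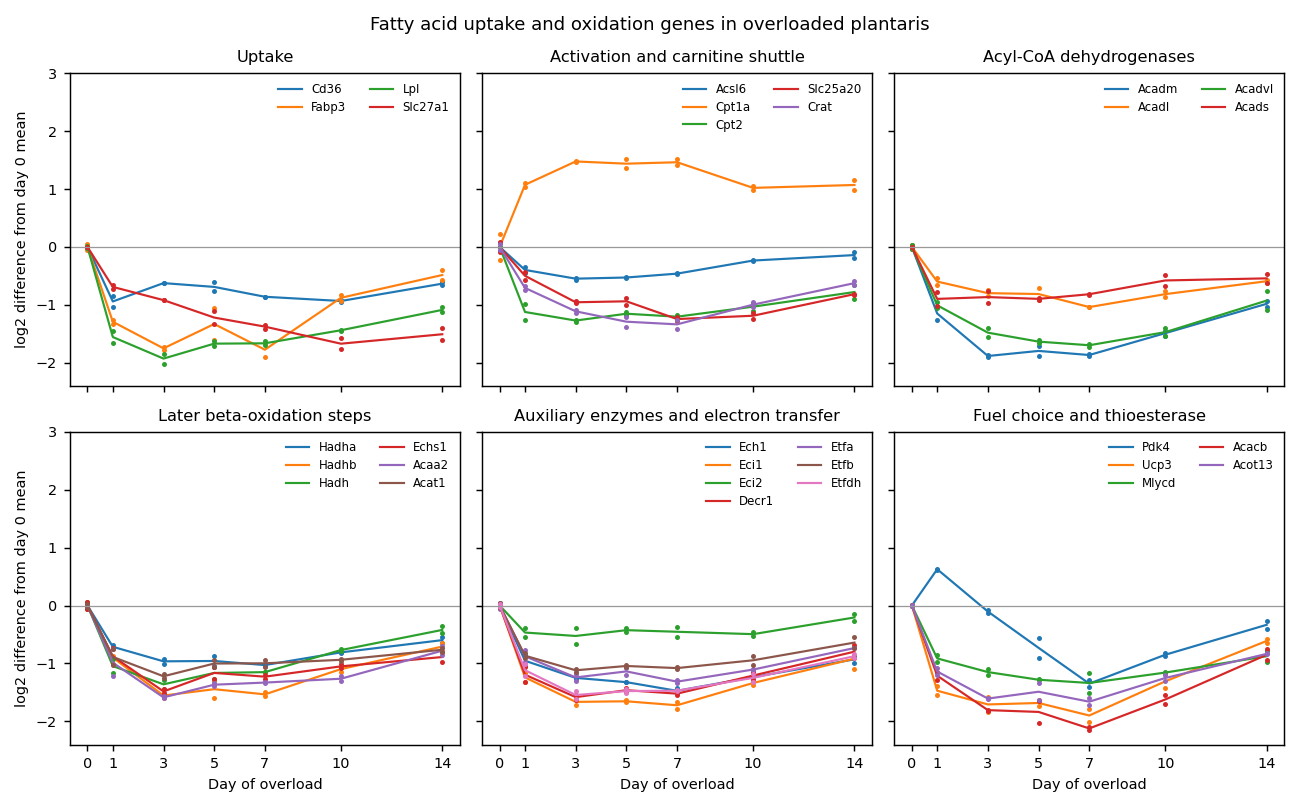
Change of each of the 31 genes from its day 0 mean (log2, vertical axis) over the 7 days of overload (horizontal axis), in 6 panels by role. Lines join day means and points are the right and left pools. Cpt1a lies above 0 from day 1 on, Pdk4 lies above 0 on day 1, and the other 29 lines stay below 0 after day 0.

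Markers of the fibres and of other cells changed as well. In bulk tissue, fewer cells of a type and less RNA per cell cannot be told apart. Of 12 muscle fibre markers, 5 fell on day 1, 12 on day 3, 11 on day 5, 12 on day 7, 5 on day 10 and 2 on day 14. Of all genes, 34.7%, 23.4%, 38.1%, 37.8%, 27.5% and 20.7% fell on those days. The counts of days 1 and 14 were near those shares. The summed intensity of the fibre markers was 113850 to 124510 in the 2 pools of day 7, 181770 to 185310 in those of day 14 and 195450 to 197610 in those of day 0. Their median change was -0.64 on day 3, -0.74 on day 7 and -0.10 on day 14, and these probe sets read near the top of the scale, with a mean log2 level of 13.96 on day 0. On day 14 the median change of the 31 genes was -0.76. The 2 medians were not compared, since the fibre probe sets read near the top of the scale. All 10 macrophage markers rose at each of the 6 days, where 20.3% to 28.5% of all genes rose. The summed intensity of these markers was 36924 to 37076 on day 3 against 4646 to 5485 on day 0. Of 10 endothelial markers, 6 rose and 2 fell on day 3 (24.2% and 23.4% of all genes). On day 14, 7 endothelial markers rose and 0 fell (21.4% and 20.7% of all genes). Their summed intensity was 13922 to 20907 over all arrays. What these cells contributed to the changes of the 31 genes was not tested.

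Fat cells and liver cells were followed as well, because both carry many of these enzymes. Of 9 adipocyte markers, 7 fell on day 1, 8 on day 7 and 4 on day 14, where 34.7%, 37.8% and 20.7% of all genes fell. The summed intensity of these markers was 4326 to 4953 on day 7 against 7776 to 8268 on day 0. The 4 brown adipocyte markers stayed low, at a summed intensity of 476 to 1671. The 15 hepatocyte markers differed strongly between pools of the same day. Their mean log2 level was 12.26 in the right day 1 pool and 10.17 in the left one, against 9.90 in the right day 0 pool and 12.16 in the left one. Over all arrays their summed intensity ran from 4781 in the right day 5 pool to 87710 in the right day 1 pool. Against day 0, 4 of these 15 markers fell on day 5, a smaller share than the 38.1% of all genes. On day 7, 13 of them fell, against 37.8% of all genes. The median change of the hepatocyte markers was 0.13, -0.54, -1.97, -2.49, -1.78 and -1.98 over the 6 days. From day 3 on these medians were below 0, but they rest on a day 0 mean of 2 pools far apart. Both day 3 pools (10.13 and 10.98) lay above the right day 0 pool, and both day 7 pools (8.89 and 8.20) lay below it. On day 7 the median change of the 31 genes was -1.34 without the 2 arrays highest in the markers and -1.35 with the marker mean as a covariate. On day 14 it was -0.78 and -0.72, with 27 and 29 of the 31 called. The difference between right and left pools over all days was significant for 0 of the 31 genes and 0% of all genes by limma, with 1 of the 31 and 586 of all genes at an unadjusted p under 0.05. That test averages over the days and cannot show gaps that change sign between them. The hepatocyte marker mean had such gaps, with right minus left at -2.26 on day 0 and 2.08 on day 1.

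**Figure D2:**
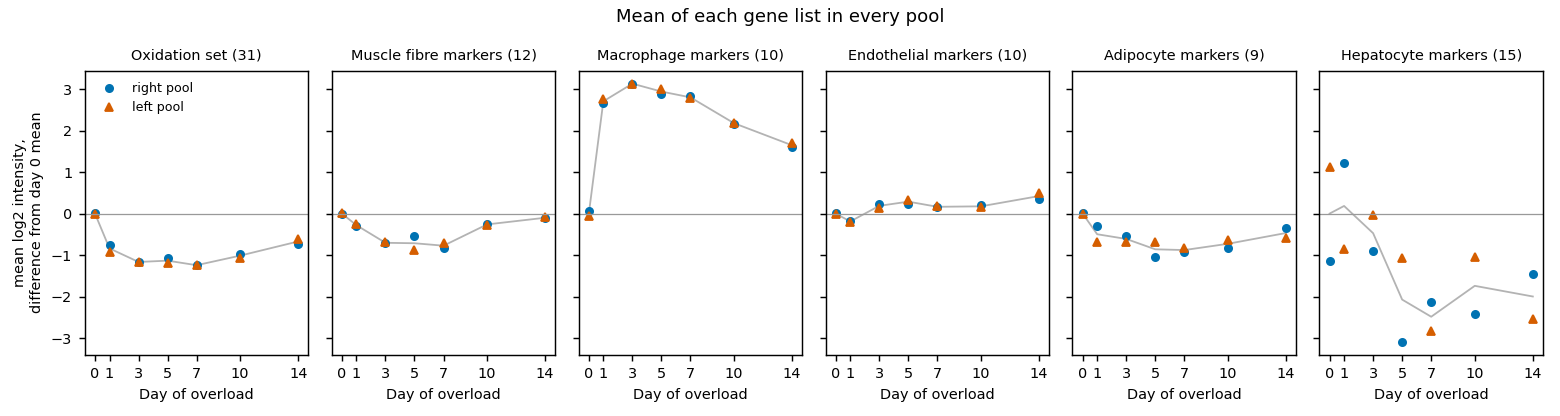
Mean log2 intensity of the 31 genes and of 5 cell type marker lists, as the difference from the list's day 0 mean (vertical axis), by day of overload (horizontal axis), for the right and left pools. The 31 genes and the macrophage markers have pools that lie close together, whereas the hepatocyte markers have pools that lie far apart on days 0, 1 and 5 and less so on days 10 and 14.

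The uptake genes fell at each day, and 2 of them were still the farthest below day 0 at the end. Lpl encodes lipoprotein lipase, the enzyme that frees fatty acids at the capillary wall. Its log2 levels (probe set 10572130) were 12.44 and 12.47 on day 0, 11.01 and 10.80 on day 1, 10.62 and 10.44 on day 3, 10.84 and 10.74 on day 5, 10.83 and 10.76 on day 7, 11.01 and 11.03 on day 10, and 11.33 and 11.42 on day 14. Both pools of each later day lay more than 1 log2 unit below both pools of day 0. On day 3 the gene was 3.80-fold lower than on day 0 (-1.93 ± 0.09, adjusted p = 2.09e-08), and on day 14 it was 2.12-fold lower (-1.09 ± 0.09, adjusted p = 2.83e-06).

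Slc27a1, which encodes the fatty acid transport protein FATP1, reached its lowest mean later than the other genes. Its levels were 11.72 and 11.72 on day 0, 11.06 and 11.00 on day 1, 10.81 and 10.81 on day 3, 10.39 and 10.62 on day 5, 10.38 and 10.31 on day 7, 10.15 and 9.96 on day 10, and 10.11 and 10.32 on day 14. Its lowest mean came on day 10 (-1.67 ± 0.10), and on day 14 it was 2.84-fold below day 0 (-1.51, adjusted p = 6.06e-07). It was lower on day 14 than on day 3 by 0.59 (adjusted p = 7.84e-04).

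Fabp3, the muscle fatty acid carrier, and Cd36, the membrane receptor for long-chain fatty acids, followed courses of their own. Fabp3 (probe set 10508614) had levels of 12.85 and 12.94 on day 0, 11.57 and 11.64 on day 1, 11.17 and 11.12 on day 3, 11.84 and 11.29 on day 5, 11.00 and 11.24 on day 7, 12.07 and 11.96 on day 10, and 12.33 and 12.49 on day 14. The pools of day 5 were 0.55 apart, the widest gap between pools in the set. Fabp3 was 3.42-fold lower on day 7 than on day 0 (-1.77 ± 0.15, adjusted p = 1.34e-06) and then rose by 0.90 between days 7 and 10 (adjusted p = 0.00305). Its call on day 14 (-0.48, adjusted p = 0.0227) was lost under quantile normalization (-0.38, adjusted p = 0.0769), without either pool of day 0 and without the right day 14 pool. A second probe set of the gene, 10371502, gave changes of -1.67 on day 3, -1.74 on day 7 and -0.48 on day 14. Cd36 was lowest on day 1 (-0.94 ± 0.08, adjusted p = 2.32e-06), was 0.32 higher on day 3 than on day 1 (adjusted p = 0.0101) and was at -0.63 on day 14. The call between days 1 and 3 was lost with equal array medians (0.19, adjusted p = 0.0982), with those days alone (adjusted p = 0.0686), without the left day 1 pool (0.22, adjusted p = 0.0945) and without the right day 3 pool (adjusted p = 0.0512).

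**Figure D3:**
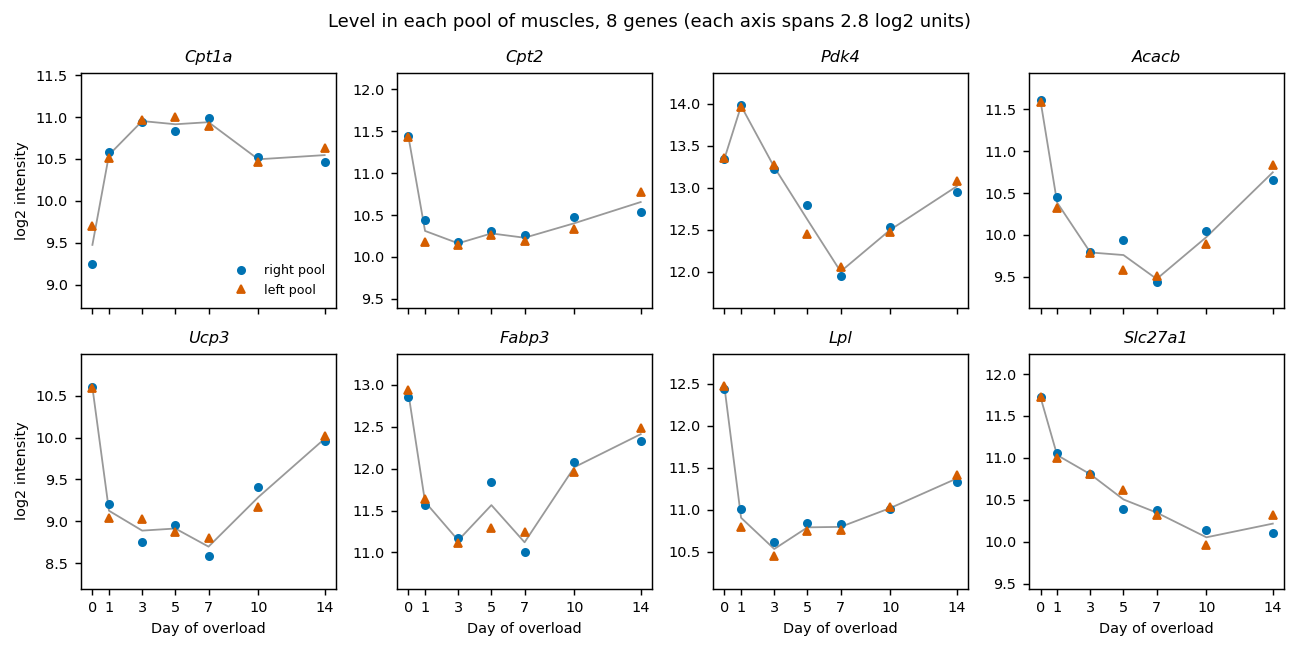
Log2 intensity (vertical axis) of 8 genes in the right pool (circles) and left pool (triangles) of each day of overload (horizontal axis), with a line through the day means and the same span of 2.8 log2 units in every panel. Cpt1a lies above day 0 at each later day, Pdk4 peaks on day 1 and is lowest on day 7, and Slc27a1 is lowest on day 10.

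Acsl6, an acyl-CoA synthetase that joins fatty acids to coenzyme A, changed little beside most genes that fell. It was at -0.40 ± 0.07 on day 1 (adjusted p = 8.64e-04), -0.55 on day 3 (adjusted p = 7.33e-05) and -0.23 on day 10 (adjusted p = 0.021). The day 10 call was lost without the right day 0 pool (-0.16, adjusted p = 0.151), without either pool of day 10 and in a fit of those days alone. On day 14 the change was -0.14 (adjusted p = 0.148), and it passed the threshold with quantile normalization (-0.27, adjusted p = 0.0134) or equal array medians (-0.23, adjusted p = 0.0252).

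Promoter sequence was read for letters that nuclear receptors of fat oxidation are known to bind. RefSeq windows of 300 bases (250 before a gene's start and 50 after it, build GRCm38.p6) were at hand for 25 of the 31 genes, 29 windows in all, and for 32851 starts of all genes. AAGGTCA, the half-site letters, was searched on both strands and stood in 3 of the 29 windows and in 4.72% of all windows. The longer TCAAGGTCA, read by estrogen-related receptors, contains the first and stood in 1 of the 29 windows and in 0.423% of all. The direct repeat read by PPAR and RXR together, AGGTCA followed by any 1 base and AGGTCA again, stood in 0 of the 29 and in 0.0396% of all. The window of Acsl6 that holds matches belongs to 1 of its 3 starts and lies on the plus strand at chr11:54303574-54303873. It is shown because it holds both sets of letters, read on the opposite strand and starting 189 and 167 bases before the start, with the matches in capitals.
Acsl6 promoter: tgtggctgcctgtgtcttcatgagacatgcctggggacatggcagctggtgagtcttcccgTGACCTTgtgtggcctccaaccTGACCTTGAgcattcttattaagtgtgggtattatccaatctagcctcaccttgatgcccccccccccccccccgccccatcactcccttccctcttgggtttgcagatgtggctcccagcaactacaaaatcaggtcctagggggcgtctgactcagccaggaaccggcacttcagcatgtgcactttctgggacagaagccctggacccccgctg
The other matches were in Acadm, shown with that gene below, and in Acacb, 43 bases after its start. These are matches of letters, and binding was not measured.

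Of the carnitine shuttle genes that were analysed, Cpt1a, of the entry step, rose and the others fell. Cpt1a encodes the carnitine palmitoyltransferase 1 that predominates in liver and many non-muscle cells. Muscle fibres mainly use the product of Cpt1b, which was not analysed here, so the main entry enzyme of fibres was not read. Cpt1a levels (probe set 10460157) were 9.25 and 9.70 on day 0, 10.59 and 10.51 on day 1, 10.94 and 10.97 on day 3, 10.83 and 10.99 on day 5, 10.99 and 10.89 on day 7, 10.53 and 10.47 on day 10, and 10.46 and 10.63 on day 14. All 12 later pools lay above both pools of day 0, which were 0.45 apart. The gene was 2.78-fold higher on day 3 than on day 0 (1.48 ± 0.13, adjusted p = 2.03e-06), and the rise was 1.07 on day 1, 1.44 on day 5, 1.46 on day 7, 1.02 on day 10 and 1.07 on day 14. It then stepped down by 0.44 between days 7 and 10 (adjusted p = 0.0362), a call that was lost without either pool of day 7, day 10 or day 3.

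Because hepatocytes express Cpt1a and hepatocyte signal differed between the day 0 pools, the rise was also computed with that signal taken into account. With the hepatocyte marker mean as a covariate the change was 1.06 on day 1, 1.51 on day 3 and 1.22 on day 14. Without the left day 0 pool and the right day 1 pool, the 2 arrays highest in those markers, it was 1.26 on day 1, 1.70 on day 3 and 1.30 on day 14. Against the left day 0 pool alone, the one with the stronger hepatocyte signal, it was 0.85 on day 1, 1.25 on day 3 and 0.85 on day 14, and each of these was called. Macrophage markers rose on the same days, and their part in the rise was not tested.

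The other shuttle genes that were analysed fell at each day. Cpt2 encodes the inner-membrane enzyme that turns the carnitine esters back into acyl-CoA. It was at 11.44 and 11.43 on day 0, 10.44 and 10.18 on day 1, 10.18 and 10.15 on day 3, 10.30 and 10.26 on day 5, 10.27 and 10.19 on day 7, 10.47 and 10.33 on day 10, and 10.54 and 10.77 on day 14. The drop came almost at once, with -1.12 ± 0.10 on day 1 and -1.27 on day 3, 2.41-fold below day 0 (adjusted p = 1.18e-06). Slc25a20, the carnitine-acylcarnitine carrier of the inner membrane, fell by 0.50 on day 1 and 1.24 on day 7 (adjusted p = 2.09e-07). Crat, which exchanges short acyl groups between coenzyme A and carnitine, fell by 0.71 on day 1 and by 1.34 on day 7, 2.52-fold below day 0.

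All 4 acyl-CoA dehydrogenases, which carry out the first oxidation of each round on chains of different length, fell at each of the 6 days. Acadm, the medium-chain enzyme, was at 13.03 and 12.97 on day 0, 11.97 and 11.73 on day 1, 11.10 and 11.14 on day 3, 11.29 and 11.12 on day 5, 11.15 and 11.12 on day 7, 11.56 and 11.47 on day 10, and 11.96 and 12.07 on day 14. The pools of days 3, 5 and 7 sat together near the lowest level, 3.69-fold below day 0 on day 3 (-1.88 ± 0.09, adjusted p = 3.25e-08). Acadvl, the very-long-chain enzyme, fell by 1.01 on day 1 and 1.70 on day 7 (adjusted p = 1.26e-07). The other dehydrogenases had smaller changes, and the difference was not tested. Acadl, the long-chain enzyme, was lowest on day 7 (-1.04 ± 0.08), and Acads, the short-chain enzyme, was lowest on day 1 (-0.90 ± 0.11) and held nearly that level to day 7 (-0.82). The RefSeq promoter window of Acadm, on the minus strand at chr3:153944594-153944893 of GRCm38.p6, is shown because this gene fell far and its window holds AAGGTCA, read on the opposite strand and starting 249 bases before the start (capitals).
Acadm promoter: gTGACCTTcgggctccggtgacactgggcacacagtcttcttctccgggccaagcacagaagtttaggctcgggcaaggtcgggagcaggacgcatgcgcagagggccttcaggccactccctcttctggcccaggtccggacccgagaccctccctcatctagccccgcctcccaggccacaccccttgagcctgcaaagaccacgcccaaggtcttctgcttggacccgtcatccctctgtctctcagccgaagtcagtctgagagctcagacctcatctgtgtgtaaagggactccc

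The 6 genes of the later beta-oxidation steps fell at each day, 5 of them being lowest on day 3. Hadha and Hadhb encode the alpha and beta subunits of the mitochondrial trifunctional protein, which hydrates, oxidises and cleaves long chains. Hadha was at 12.60 and 12.62 on day 0, 11.92 and 11.87 on day 1, 11.69 and 11.60 on day 3, 11.73 and 11.57 on day 5, 11.59 and 11.57 on day 7, 11.81 and 11.79 on day 10, and 11.96 and 12.06 on day 14. Hadhb was at 12.37 and 12.40 on day 0, 11.52 and 11.45 on day 1, 10.79 and 10.86 on day 3, 11.08 and 10.79 on day 5, 10.81 and 10.88 on day 7, 11.33 and 11.24 on day 10, and 11.60 and 11.74 on day 14. For both genes the pools of every later day lay below those of day 0, and those of day 14 lay above those of day 7. The change on day 3 was -0.96 ± 0.07 for Hadha and -1.55 ± 0.09 for Hadhb, and a second probe set of Hadhb gave -1.54. The difference between the 2 genes was not tested.

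Hadha and Hadhb lie head to head on chromosome 5 with starts 273 bases apart, so that their promoter windows overlap by 228 bases. Overlap with an opposite-strand window of another gene occurred for 11.9% of the 27025 genes with a window. The Hadhb window, on the plus strand at chr5:30155003-30155302 of GRCm38.p6 (RefSeq), is shown because these 2 genes of 1 enzyme share most of it, with the shared bases in capitals.
Hadhb promoter: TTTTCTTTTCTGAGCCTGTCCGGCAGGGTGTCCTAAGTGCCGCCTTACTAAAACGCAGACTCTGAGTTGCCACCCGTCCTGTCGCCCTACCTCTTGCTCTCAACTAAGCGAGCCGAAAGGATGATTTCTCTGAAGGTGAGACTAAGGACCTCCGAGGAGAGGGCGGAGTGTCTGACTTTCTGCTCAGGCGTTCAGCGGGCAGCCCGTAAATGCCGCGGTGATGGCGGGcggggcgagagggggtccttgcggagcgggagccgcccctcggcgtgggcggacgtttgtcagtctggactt
It held neither AAGGTCA nor the direct repeat.

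Of the other later-step genes, Hadh, the short-chain hydroxyacyl-CoA dehydrogenase, came closest to its day 0 level. It was lowest on day 3 (-1.36 ± 0.10, adjusted p = 6.14e-07) and at -0.42 on day 14 (adjusted p = 0.0059). Echs1, the short-chain enoyl-CoA hydratase, fell by 1.48 on day 3 and by 0.89 on day 14. Acaa2, the thiolase of medium and shorter chains, fell by 1.59 on day 3 and by 0.78 on day 14. Acat1, which cleaves acetoacetyl-CoA in mitochondria, fell by 1.22 on day 3 and by 0.76 on day 14. These 4 genes, like Hadhb, had their lowest mean on day 3.

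Auxiliary enzymes rearrange double bonds so that unsaturated fatty acids can enter the cycle. Eci1, the mitochondrial enoyl-CoA isomerase, was at 11.51 and 11.46 on day 0, 10.31 and 10.17 on day 1, 9.88 and 9.77 on day 3, 9.85 and 9.82 on day 5, 9.70 and 9.82 on day 7, 10.19 and 10.11 on day 10, and 10.39 and 10.74 on day 14. It was 3.30-fold lower on day 7 than on day 0 (-1.72 ± 0.11, adjusted p = 1.44e-07). Its relative Eci2, which is found in peroxisomes as well as mitochondria, had smaller changes, though the difference between the 2 genes was not tested. Eci2 fell by 0.53 on day 3 (adjusted p = 0.00124) and by 0.49 on day 10, and on day 14 it was at -0.21 (adjusted p = 0.129). That last change passed the threshold with quantile normalization (-0.28, adjusted p = 0.0174) or equal array medians (-0.30, adjusted p = 0.0206). Decr1, the 2,4-dienoyl-CoA reductase, fell by 1.58 on day 3, and Ech1, a dienoyl-CoA isomerase, fell by 1.47 on day 7.

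All 3 electron transfer genes fell at each of the 6 days. Etfa and Etfb encode the subunits of the flavoprotein that collects electrons from the acyl-CoA dehydrogenases, and Etfdh encodes the enzyme that passes them to ubiquinone. On day 3 the changes were -1.24 ± 0.08 for Etfa, -1.12 ± 0.08 for Etfb and -1.55 ± 0.09 for Etfdh. On day 14 they were -0.73 for Etfa, -0.64 for Etfb and -0.88 for Etfdh, each still called. Both pools of day 14 lay below both pools of day 0 for each of the 3.

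The genes of fuel choice held both the deepest fall and the one early rise that reversed. Acacb encodes acetyl-CoA carboxylase 2, which makes the malonyl-CoA that inhibits carnitine palmitoyltransferase 1 at the mitochondrial surface. Its levels were 11.61 and 11.58 on day 0, 10.46 and 10.32 on day 1, 9.80 and 9.78 on day 3, 9.94 and 9.58 on day 5, 9.44 and 9.51 on day 7, 10.05 and 9.90 on day 10, and 10.65 and 10.84 on day 14. On day 7 it was 4.35-fold lower than on day 0 (-2.12 ± 0.12, adjusted p = 4.98e-08), the largest change of the 31 genes against day 0. Mlycd, whose product degrades malonyl-CoA, also fell, by 0.91 on day 1, 1.34 on day 7 and 0.88 on day 14.

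Pdk4 encodes a kinase that switches off pyruvate dehydrogenase and so spares glucose when fat is burned. It was at 13.34 and 13.36 on day 0, 13.98 and 13.97 on day 1, 13.22 and 13.27 on day 3, 12.79 and 12.45 on day 5, 11.95 and 12.05 on day 7, 12.53 and 12.47 on day 10, and 12.95 and 13.08 on day 14. Its pools were above day 0 on day 1 and below it from day 3 on. It was 1.54-fold higher on day 1 (0.63 ± 0.10, adjusted p = 3.25e-04), at -0.10 on day 3 (adjusted p = 0.435) and 2.55-fold lower on day 7 (-1.35, adjusted p = 5.58e-07). On day 14 it was at -0.33 (adjusted p = 0.0217), a call that was lost under quantile normalization (-0.24, adjusted p = 0.0639), without either pool of day 0 and without the right day 14 pool.

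Ucp3, a mitochondrial carrier of muscle that responds to fatty acids, was at 10.60 and 10.59 on day 0, 9.21 and 9.05 on day 1, 8.75 and 9.03 on day 3, 8.96 and 8.87 on day 5, 8.59 and 8.80 on day 7, 9.41 and 9.17 on day 10, and 9.96 and 10.02 on day 14. It was 3.73-fold lower on day 7 than on day 0 (-1.90 ± 0.12, adjusted p = 1.13e-07) and climbed in both later steps. Acot13, a thioesterase that frees fatty acids from coenzyme A, fell by 1.14 on day 1 and by 1.66 on day 7 (adjusted p = 5.85e-08).

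Between sampled days the set moved in an early step down and a late step up. Between days 1 and 3, 21 of the 31 genes fell further and 2 rose, Cd36 and Cpt1a, where 13.2% of all genes fell and 21.5% rose. Both rises were lost with equal array medians (Cd36 at 0.19, adjusted p = 0.0982, and Cpt1a at 0.27, adjusted p = 0.118). They were also lost in some of the fits that left out a pool of those days, that of Cpt1a (0.40, adjusted p = 0.0293) in all 4. The falls numbered 11 without the right day 1 pool and 14 without the right day 3 pool. Between days 3 and 5, 1 of the 31 was called (11.2% of all genes), and between days 5 and 7 again 1 (1.15% of all genes). In both steps it was Pdk4, which fell by 0.63 (adjusted p = 0.00346) and then by 0.62 (adjusted p = 0.017). The second of these calls was lost without either pool of day 7 and without the right day 5 pool.

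Between days 7 and 10, 10 genes rose and Cpt1a fell, where 6.95% of all genes rose and 9.52% fell. Between days 10 and 14, 14 genes rose, where 2.11% of all genes rose. Acacb, Acadm, Acot13, Crat, Hadhb, Pdk4 and Ucp3 were the 7 that rose in both steps. Both counts rest on few pools. The first was 1 without the right day 7 pool or the right day 10 pool, 7 without the left day 7 pool and 6 without the left day 10 pool. The second was 0 without the left day 10 pool or the left day 14 pool, 2 without the right day 10 pool, 3 without the right day 14 pool and 9 without either pool of day 7. With equal array medians the second rises of Acot13 (0.42, adjusted p = 0.0528) and Hadhb (0.40, adjusted p = 0.0622) were not called. Cell markers moved in the same steps. Between days 7 and 10 all 12 muscle fibre markers rose (median 0.49) and 8 of 10 macrophage markers fell. Between days 10 and 14, 7 of the 10 macrophage markers fell, where 511 of all 19938 genes fell. The median change of the fibre markers in that step was 0.17, against 0.35 for the 31 genes. The part of these cells in the rises was not tested. As positions rather than calls, both pools of day 14 lay above both pools of day 10 for 28 of the 31 genes and for 27.8% of all genes.

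Over the longer interval between days 3 and 14 the climb was called more widely. On day 14, 24 genes were higher than on day 3 and 2 were lower, Slc27a1 and Cpt1a, against 17.6% and 16.3% of all genes. The call of Cpt1a (-0.41, adjusted p = 0.028) was lost without either pool of day 3, without the right day 14 pool and with the hepatocyte covariate. The largest of these rises were in Fabp3 (1.27 ± 0.15, adjusted p = 6.08e-05), Ucp3 (1.10, adjusted p = 2.77e-05), Acacb (0.96) and Hadh (0.94). The 5 genes not called were Acadl, Cd36, Mlycd, Pdk4 and Slc25a20, with changes of 0.21, -0.01, 0.27, -0.23 and 0.14 in that order.

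The day of the lowest mean divided the 30 genes that were below day 0 on day 14. It was day 1 for 2 genes, Cd36 and Acads, day 3 for 13, day 7 for 14 and day 10 for Slc27a1. By day 14 the genes had regained a median of 44.8% of their largest drop on the log2 scale, from 9.78% for Slc27a1 to 75.3% for Pdk4. The share was 74.5% for Acsl6, 72.7% for Fabp3, 69.1% for Hadh and 67.8% for Ucp3, and it was under 50% for 20 of the 30 genes. No test was made of these shares, whose lowest day was picked from the same values.

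**Figure D4:**
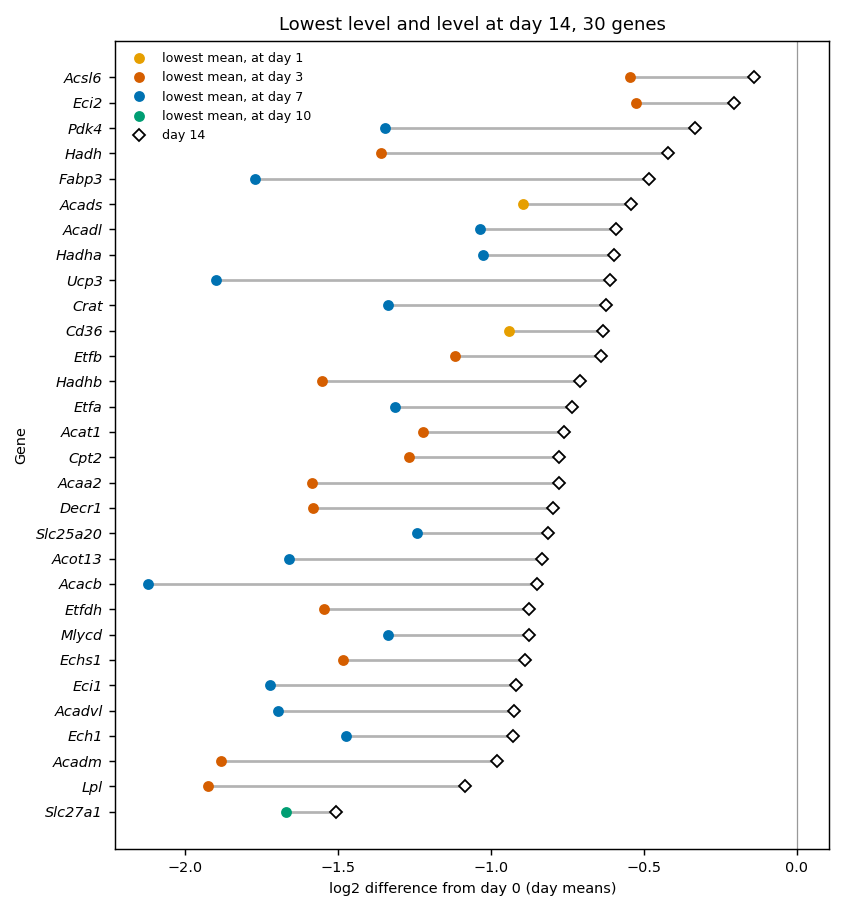
For the 30 genes below day 0 on day 14 (vertical axis), the log2 difference from day 0 (horizontal axis) at the day of the lowest mean (filled circles, coloured by that day) and on day 14 (open diamonds). All diamonds lie left of 0, and the line between the marks is shortest for Slc27a1.

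Several genes of the set have relatives that moved otherwise in the same pools. Fabp5, the carrier of skin, fat and macrophages, had levels of 11.64 and 11.50 on day 3 against 8.63 and 8.75 on day 0, a rise of 2.88 ± 0.10 (adjusted p = 4.18e-09), and it was still up by 1.30 on day 14. Fabp4, the carrier of fat cells and capillaries, changed little, with -0.53 ± 0.11 on day 7 (adjusted p = 0.00136) and 0.24 on day 14 (adjusted p = 0.099). Among transporters, Slc27a3 rose by 0.62 on day 7 (adjusted p = 2.87e-05) and Slc27a4 by 0.59 on day 1 (adjusted p = 0.00201), days on which Slc27a1 had fallen. Among synthetases, Acsl5 rose by 1.21 ± 0.21 on day 3 (adjusted p = 4.69e-04) and Acsl4 by 0.44 on day 1 (adjusted p = 5.37e-04), where Acsl6 had fallen. Acsl5 was at 8.59 and 9.21 on day 0 and 10.34 and 9.73 on day 1. On these 2 days its pools differed in the same direction as the hepatocyte markers, and a part of liver signal was not tested.

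The kinases of pyruvate dehydrogenase took 3 courses. Pdk3 was at 10.28 and 10.04 on day 7 against 7.61 and 7.30 on day 0, a rise of 2.71 ± 0.14 (adjusted p = 3.60e-08). Pdk2 was at 11.33 and 11.56 on day 7 against 13.19 and 13.20 on day 0, a change of -1.75 ± 0.11 (adjusted p = 1.88e-07). Pdk1 fell by 0.70 on day 7 (adjusted p = 5.67e-06), and Pdk4 alone of the 4 was above day 0 on day 1 and below it on day 7 with both called. Acaca, which makes malonyl-CoA for fatty acid synthesis, was not called at any day, with changes from -0.23 on day 1 to 0.18 on day 7, while Acacb fell. It was called lower with quantile normalization on days 1, 3 and 5 (-0.31, -0.30 and -0.20) and with equal array medians on day 3 (-0.27). Probe sets of relatives differ in sequence and response, so these are changes of each gene and not shares of a family.

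**Figure D5:**
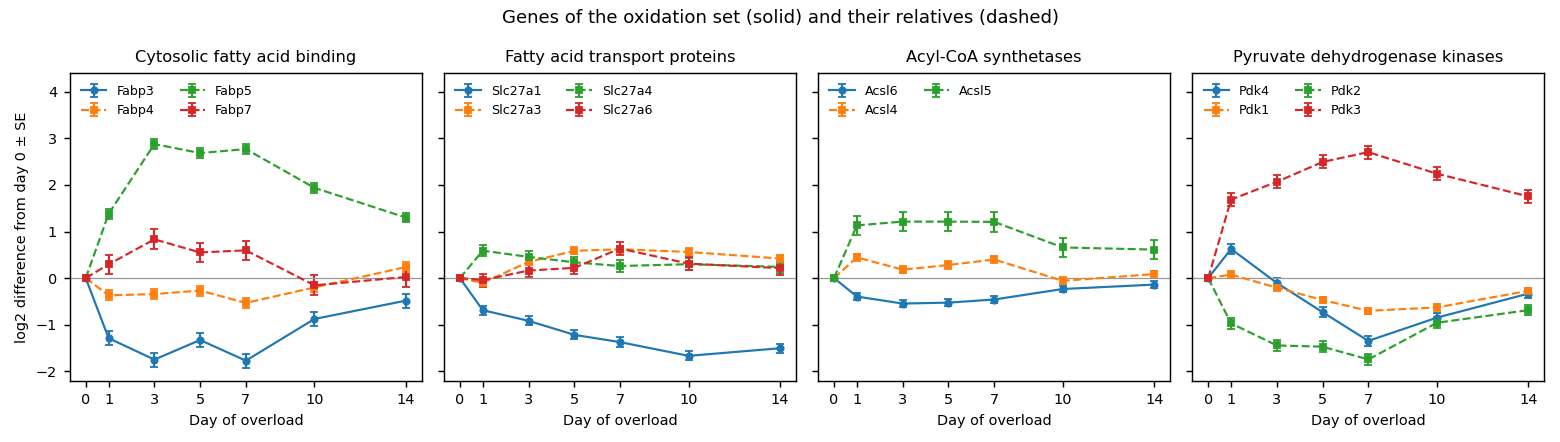
Log2 difference from day 0 ± SE (vertical axis) by day of overload (horizontal axis) for Fabp3, Slc27a1, Acsl6 and Pdk4 (solid lines, circles) and their relatives (dashed lines, squares). Fabp5 and Pdk3 lie highest, at 2.88 and 2.71, while Fabp3 and Pdk2 lie below 0 on the same days.

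Neighbouring pathways were read from lists chosen with earlier results of these data known. No called change of these 115 genes against day 0 turned its direction with the 2 other scalings of the arrays, while 47 calls were lost and 73 gained over the 6 days and both scalings. Of 20 other mitochondrial acyl-CoA enzymes, 17 fell and 2 rose on day 3 (23.4% and 24.2% of all genes), with a median change of -0.84 against -0.07 over all genes. Their largest falls were Acad11 (-1.67 ± 0.14 on day 7), a dehydrogenase of long chains, and Ivd (-1.65 on day 3), the isovaleryl-CoA dehydrogenase of leucine breakdown. Acot9, a mitochondrial thioesterase, rose by 1.05 on day 1. Of 18 regulators that sense lipid or energy state, 13 fell and 3 rose on day 3 (72.2% and 16.7%), with a median of -0.87. With quantile normalization and with equal array medians 14 fell and 1 rose, as the rises of Pparg (0.22) and Nrf1 (0.35) were not called there and Foxo1 was called lower. Ppargc1a, the coactivator PGC-1 alpha that drives mitochondrial and fat oxidation genes, was at 8.09 and 8.37 on day 3 against 11.24 and 11.16 on day 0, a change of -2.97 ± 0.17 (adjusted p = 9.64e-08). Ppara, the fatty acid receptor of liver and muscle, fell by 2.35 ± 0.20 on day 7. Ppard, its relative in muscle, rose by 1.28 ± 0.07 on day 1 and did not stay up. Its levels were 10.38 and 10.40 on day 0, 10.42 and 10.46 on day 3, 10.01 and 9.98 on day 7, and 10.01 and 10.10 on day 14. Prkaa1, a catalytic subunit of AMP-activated kinase, rose by 0.62 on day 7.

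Lipid storage and the partners of lipoprotein lipase gave mixed counts. Of 18 genes of lipid droplets and lipolysis, 11 fell and 3 rose on day 1 (61.1% and 16.7%, against 34.7% and 20.3% of all genes). On day 7, 13 fell and 2 rose (72.2% and 11.1%, against 37.8% and 28.5% of all genes). Plin2, a droplet coat protein, was at 12.96 and 12.88 on day 1 against 11.30 and 11.37 on day 0, a rise of 1.59 ± 0.07 (adjusted p = 2.56e-08), and Lpin2, a phosphatidate phosphatase, rose by 2.13 on day 1. Plin4, another coat protein, fell by 2.40 ± 0.09 on day 7, and Dgat2, which completes triglyceride synthesis, fell by 2.15. Of 10 partners of lipoprotein lipase, 6 rose and 1 fell on day 3 (60% and 10%, against 24.2% and 23.4% of all genes). Angptl4, a secreted inhibitor of the lipase, was at 10.89 and 10.91 on day 3 against 8.62 and 8.09 on day 0, a rise of 2.55 ± 0.14 (adjusted p = 5.91e-08). Lpl also had its lowest mean on day 3, and a relation between the 2 genes was not tested. Lipg, endothelial lipase, rose by 1.30 on day 1, Lmf1, which matures these lipases, fell by 0.44 on day 1, and Vldlr, a lipoprotein receptor, fell by 2.50 ± 0.12 on day 7.

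Ketone body use and the remaining carriers and kinases had members that moved both ways. Of 5 genes of ketone body use, 3 fell and 1 rose on day 7 (60% and 20%, against 37.8% and 28.5% of all genes). The rise was not called with the 2 other scalings. The largest fall was that of Bdh1, the hydroxybutyrate dehydrogenase, by 2.81 ± 0.20 (adjusted p = 4.02e-07). Oxct1, which activates acetoacetate, fell by 1.50 on day 3, and Aacs, which uses ketone bodies for synthesis, rose by 0.56 on day 3. Of 15 other carriers and synthetases, 5 rose and 6 fell on day 3 (33.3% and 40%, against 24.2% and 23.4% of all genes). The rise of Slc27a4 on that day (0.46) was not called with either other scaling. The largest falls were those of Acss1 (-1.63 on day 3) and Acss2 (-1.87 on day 7), the acetyl-CoA synthetases. Of 9 genes listed with the kinases and malonyl-CoA, 2 rose and 4 fell on day 7 (22.2% and 44.4%), near the shares of all genes (28.5% and 37.8%). They included Acly, which makes cytosolic acetyl-CoA, up by 1.02 on day 7, and Pdpr, a regulator of the pyruvate dehydrogenase phosphatase, at -1.73 on day 3.

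Carnitine supply had members that moved both ways, while the rises among peroxisomal genes were lost with the 2 other scalings of the arrays. Of 14 peroxisomal genes, 7 fell and 1 rose on day 7 (50% and 7.14%, against 37.8% and 28.5% of all genes), with a median of -0.61. Abcd2, which imports very long acyl-CoA into peroxisomes, was at 8.88 and 8.69 on day 7 against 11.20 and 10.88 on day 0, a change of -2.25 ± 0.12 (adjusted p = 4.48e-08). Slc27a2, a very-long-chain acyl-CoA synthetase abundant in liver, fell by 2.51 on day 7 with an SE of 0.93, and its pools followed the hepatocyte markers, at 8.46 on the right and 11.15 on the left on day 0. Acox3 and Acot8 rose by 0.30 each, on day 7 and on day 5, and both calls were lost with quantile normalization (0.10 and 0.15) and with equal array medians (0.18 and 0.19). Of 6 genes of carnitine supply, 1 rose and 2 fell on day 1 (16.7% and 33.3%), near the shares of all genes (20.3% and 34.7%). Slc22a4, a carrier related to the carnitine transporter, rose by 2.05 ± 0.11 on day 1, while Slc22a5, the carnitine transporter itself, fell by 0.54. Aldh9a1, an enzyme of carnitine synthesis, rose by 1.00 on day 3. It was at 9.32 and 9.86 on day 0 and 10.37 and 9.71 on day 1, gaps in the same direction as those of the hepatocyte markers. Slc25a29, a mitochondrial carrier of basic amino acids, fell by 0.78 on day 5.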

How the data were processed

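RNA from pooled plantaris muscles was read on 14 Affymetrix Mouse Gene 1.0 ST arrays. The deposited values are linear intensity values, 1 per probe set, made by the authors with Partek, per the submitters' processing notes. Its version, summarisation and normalization are not given in the sources used here. Intensities spanned 5.9 to 29501.5 and array medians 242.8 to 254.9, so the arrays look scaled. The number of arrays limits the precision.

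From the deposited intensity, log2 was taken with no further scaling. Probe sets with exactly 1 symbol numbered 21789 of 35556, while 1621 had several and 12146 had none listed. The brightest probe set by mean over all arrays stood for each of the 19938 genes, 999 of which had several. Each comparison came from a single limma model (limma 3.58.1, R 4.3.3) with a mean for every day, 7 residual and 3.88 prior degrees of freedom and 12 contrasts. Tests were two-sided, and p-values were Benjamini-Hochberg adjusted over the 19938 genes of each contrast. Side pairs were not used as a block, since right minus left correlated between days at -0.58 to 0.44 and only 9 of 21 pairs of days passed 0.1.

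The members, lists and tests were chosen with earlier results of these data known. All members were named. From each pathway list up to 2 genes with the largest called rise and 2 with the largest called fall against day 0 were named, and relatives of members as well. Promoter windows and gene names were RefSeq's. On simulated data of 19938 genes with noise independent between genes, 200 genes were changed on day 3 against day 0. The fit recovered 72% of the 1.5-fold, 92% of the 2-fold and 100% of the 4-fold and 8-fold changes, and made 6 false calls. In the data 4829 genes rose and 4673 fell on day 3, so these rates may not hold there. Alternatives were other array scalings, a filter on dim genes, mean probe sets, other variance priors, side as a block, fits of 2 days alone, a 2-fold rule, hepatocyte signal as a covariate or its highest arrays left out, and each array left out in turn. Figures were made with matplotlib 3.10.9.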

Additional observations from a re-analysis of the deposited data

How the results depend on the processing

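No change of a member reversed its direction with a call under any alternative, and the calls against day 0 at days 1, 3, 5 and 7 stayed at 31, 30, 31 and 31 of 31 in every fit that left out 1 array. The corresponding range was 30 to 31 at day 10, 27 to 29 at day 14, 12 to 23 from day 1 to day 3, 1 to 2 from day 3 to day 5, 0 to 2 from day 5 to day 7, 1 to 13 from day 7 to day 10, 0 to 14 from day 10 to day 14, 23 to 27 from day 3 to day 14, and 31 to 31 for the F test. A day left with 1 pool was assumed to vary like the others. Requiring a 2-fold change as well left 13 genes at day 1, 19 at day 10 and 3 at day 14. It left 0 from day 1 to day 3, from day 7 to day 10 and from day 10 to day 14. From day 3 to day 14 it left 2. These counts follow from the sizes of the changes. By the same rule, 632 of all 19938 genes fell and 1220 rose at day 1. At day 10 they were 508 and 1334, and at day 14 they were 257 and 976. From day 1 to day 3, 13 genes were called with the arrays of those days alone and 13 without the left day 0 pool and the right day 1 pool. From day 3 to day 5, 2 were called with quantile normalization and 2 without those pools, and from day 7 to day 10, 17 with quantile normalization. With side as a replicate block 9 genes were called from day 10 to day 14, and 9 with those days alone. The block moved no other count by over 1.5 times. Apart from the fits with fewer arrays, the cause was not tested. Counts over all genes in these other fits are not given here, so an effect on the set cannot be told from one on the whole array. Against day 0, the calls lost under some alternative belonged to 3 genes (Acsl6, Fabp3 and Pdk4) and those gained to 2 (Acsl6 and Eci2). Equal array medians moved the median of all genes to -0.17 on day 3, -0.28 on day 5 and -0.27 on day 7, since it shifts all genes of an array alike. Relative to all genes the 31 lay at -0.77, -1.18, -1.06, -1.19, -0.98 and -0.68 over the 6 days as reported, and at -0.83, -1.14, -1.09, -1.18, -0.92 and -0.63 with quantile normalization.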

Other observations

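The right and left pools of a day differed by little in single genes of the set, yet on some days nearly all of the 31 leaned the same way. At day 1, 29 of the 31 genes were higher in the right pool, with a median difference of 0.14, and the hepatocyte marker mean was 2.08 higher there. At day 10, 29 were again higher in the right pool (median 0.09), where the hepatocyte marker mean was 1.38 lower. At day 14, 29 were higher in the left pool (median right minus left -0.12), where the hepatocyte mean was lower. At day 0, where the hepatocyte markers differed most, 19 were higher in the right pool and 12 in the left (median 0.02). The 31 genes of a pool share 1 RNA sample and 1 array, so these counts are not independent observations, and what sets the difference between pools was not tested. Counts over all genes are not given here, so a lean of the set cannot be told from one of the whole array. Over the whole set the largest difference between the pools of a day had a median of 0.25 per gene.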
